A study of Danio rerio with 8 samples.

Results

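The set described here holds the genes that were clearly lower in every dgat1a melanoma than in any egfp melanoma of the same series. Its members were chosen by their measured values: the mean over the 8 tumours had to be at least 1 fpm, and the lowest of the 3 egfp values had to be more than 1.5 times the highest of the 5 dgat1a values. The unit fpm is the authors' per-million signal, scaled by a factor for each library. The rule found 94 of 22416 listed genes, of which 16853 passed the minimum mean. Since the rule used the contrast between the groups, the members' own differences are a description, and test calls on them are no support for the set.

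All 8 tumours were melanomas of zebrafish carrying tp53m214K/m214k, mitfa-/- and nras G12D, harvested at 10 to 12 weeks. The 5 dgat1a tumours carried Tg(mitfa:dgat1a) and the 3 egfp tumours carried Tg(mitfa:egfp). Both transgenes were thus driven by the promoter of mitfa, the regulator of the melanocyte lineage, and were introduced with miniCoopR, a vector that restores mitfa to a mitfa mutant together with a gene of interest. The egfp tumours therefore shared the p53 mutation, the oncogenic NRAS and the mitfa rescue, and differed from the dgat1a tumours in the gene linked to it. Nothing in the labels says whether tumours came from separate fish, clutches or days, so the spread given below is that between these 8 samples.

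Diacylglycerol O-acyltransferase 1, the product of dgat1a, joins an acyl group to diacylglycerol and so makes triacylglycerol, the fat stored in lipid droplets. Melanocytes and melanomas arise from the neural crest, and melanomas with oncogenic NRAS signal through the RAF, MEK and ERK kinases. Members are spelled as the name table gives them. Many of these are human-type symbols in capitals for zebrafish genes, and the roles stated are those known for genes of that name, mostly from mammals.

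The libraries held 20936089 to 26865735 reads assigned to listed genes, so that 3 reads, the smallest level taken as shown by this depth, were 0.109 to 0.138 fpm. DGAT1 (ENSDARG00000103503) averaged 3015 ± 724 fpm in dgat1a tumours and 47.1 ± 25.1 fpm in egfp tumours (SD, n = 5 and 3). A second ID with that symbol (ENSDARG00000054914) averaged 4.43 ± 1.26 fpm in dgat1a tumours and 4.57 ± 0.933 fpm in egfp tumours, and the name table does not say which of them is dgat1a. Melanocyte genes were present in every tumour. The early neural crest and melanocyte factor SOX10 lay between 776 and 1095 fpm in dgat1a tumours and between 667 and 1116 fpm in egfp tumours. MITF (ENSDARG00000003732), which the vector also carries, lay between 685 and 1565 fpm in dgat1a tumours and between 1609 and 2851 fpm in egfp tumours, a gap too narrow for the rule. Of the markers of other tissues, those of skeletal muscle summed to 8.55 to 1487 fpm in dgat1a tumours and 3.32 to 30.1 fpm in egfp tumours. Those of erythrocytes summed to 73.3 to 364 fpm in dgat1a tumours and 266 to 825 fpm in egfp tumours. Those of nerve and glia summed to 127 to 414 fpm in dgat1a tumours and 414 to 516 fpm in egfp tumours, with 3 of the 13 IDs at 0 in at least 1 tumour. No member is on these marker lists, which hold 16, 8 and 7 tested IDs, where 0.558% of all tested genes are members. The part of these tissues in the results was not tested. In whole tumours, fewer cells of a type and less RNA per cell cannot be told apart.

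The 94 members were 0.558% of the genes that passed the minimum mean. With the groups exchanged, so that the lowest dgat1a value had to exceed 1.5 times the highest egfp value, 92 genes, or 0.546%, met the rule. The number was also counted under the other 55 divisions of the 8 tumours into 3 and 5. There it ranged from 3 to 112 with a median of 13. Only 1 of these divisions gave as many as 94, that in which dgat1a replicates 1, 3 and 5 stood together above the rest, with 112 genes. With both directions added, the labelled division gave 186 genes, against a median of 30 and a highest value of 244 in the others. The labelled groups were thus near, but not at, the top of what 3 and 5 tumours of this series gave.

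**Figure D1:**
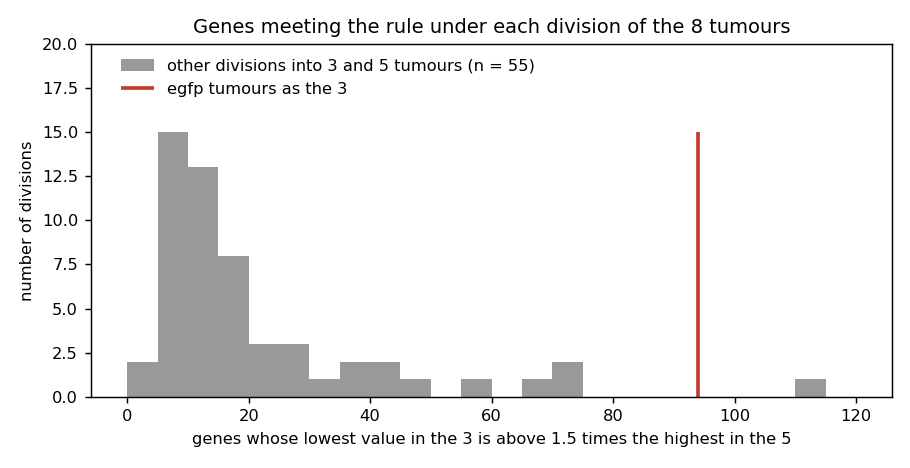
Number of divisions of the 8 tumours (vertical axis) by the number of genes whose lowest value in the 3 tumours is more than 1.5 times the highest in the other 5 (horizontal axis, bins of 5 genes). Grey bars are the 55 divisions that mix the groups, and the red line marks the 94 genes of the egfp tumours. The line lies to the right of all grey bars but the one that holds 112 genes.

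Calls by other procedures used the same contrast and add nothing to the choice of members, so they are given only for orientation. The groups stood apart, every dgat1a value below every egfp value, for 1002 genes, 5.95% of those tested, and the members were those of them with the wider gaps. With limma on log2(fpm + 0.5), 9 genes, 0.0534% of those tested, had a Benjamini-Hochberg adjusted p under 0.05. The 3 that were lower, 0.0178% of those tested, were all members. These were CARTPT (adjusted p = 0.0035), SLC35C2 (adjusted p = 0.0074) and CALCOCO1 (adjusted p = 0.045, limma). All 94 had an unadjusted limma p under 0.05, which the rule makes likely in advance, as did 8.18% of all tested genes in that direction. The edgeR quasi-likelihood test called 1 gene lower, 0.00593% of those tested, which was a member. DESeq2 called 5.14% of the tested genes in either direction and 475, or 2.82%, as lower, among them 89 members. The authors' deposited table lists 475 of its 22416 genes, 2.12%, as lower at an adjusted p under 0.05, and 90 of the members were among them. Among those that passed the minimum mean, that table calls 2.66% lower. Of the 4 members not called lower there, the authors' deposited table gives no adjusted p for NWD2, zgc:136858 and CDH15 and 0.0543 for si:dkey-20i20.7. Members were thus 18.9% of the authors' lower calls, and 95.7% of the members were such calls.

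Differences in level are given below as log2 fold changes, dgat1a minus egfp, on the log2(fpm + 0.5) scale, which understates the change of low genes. They ranged from -4.94 to -0.73 among the members with a median of -1.62, where the median of all tested genes was 0.04. A member's mean in dgat1a tumours was between 0.209% and 55.0% of its mean in egfp tumours, with a median of 32.4%. The median member averaged 7.13 fpm in dgat1a tumours and 31.3 fpm in egfp tumours. The members covered a wide range of levels, with 18 above 100 fpm, 54 between 10 and 100 fpm and 22 below 10 fpm by the egfp mean. The lowest egfp value of any member stood for 19 reads. In dgat1a tumours 5 members, NWD2, chrna4a, urahb, PDGFA and MMP17, had 3 reads or fewer in at least 1 library, and chrna4a had none in 2 of them.

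Most gaps were narrow. The lowest egfp value divided by the highest dgat1a value had a median of 1.69, exceeded 2 in 21 members and 3 in 6 members, and lay under 1.6 in 30. Just inside the threshold were ZRANB2, zgc:103759 and RAP1GAP at ratios of 1.52, 1.505 and 1.504. Just outside it were si:dkey-4c15.7, CCDC102A and mettl17 at 1.4999, 1.4905 and 1.4897, and 43 genes in all had a ratio between 1.4 and 1.5. The set thus has no natural edge at the threshold. The spread within a group was like that of other genes: the median SD of the members on the log2 scale was 0.42 among dgat1a tumours and 0.40 among egfp tumours, against 0.41 and 0.44 for all tested genes. The egfp values of 15 members spread over more than 3-fold.

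The tumours did not contribute alike. Among the egfp tumours, replicate 1 was the highest for 58 of the 94 members, or 61.7%, where it was the highest for 34.4% of all tested genes. The members summed to 13932 fpm there, and to 11590 and 11638 fpm in egfp replicates 2 and 3. Among the dgat1a tumours, replicate 2 was the lowest for 35 members, replicate 3 for 30 and replicate 5 for 4. Over all tested genes these replicates came in the same order, lowest for 26.7%, 23.2% and 12.7%. The members' sums ran from 3927 fpm in dgat1a replicate 2 to 5447 fpm in dgat1a replicate 1, so that every dgat1a sum was below every egfp sum, as the rule requires of each member. Much of these sums came from the abundant RPL5 and rpl32, at 1771 and 1339 fpm in dgat1a replicate 1 and 1171 and 830 fpm in dgat1a replicate 2. The order of the sums thus says little about the other members. Replicate 1 of the egfp tumours was also the library with the most genes at 0 reads, 1232 against 353 to 777 in the dgat1a tumours and 738 and 657 in egfp replicates 2 and 3. Without it the rule found 157 genes, 91 of the 94 members among them. Leaving out a tumour cannot narrow a member's gap, so a member can be lost this way only through the minimum mean. Fewer tumours make the rule easier to meet: it found 497 genes without egfp replicate 2, 283 without egfp replicate 3 and 151 without dgat1a replicate 1.

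**Figure D2:**
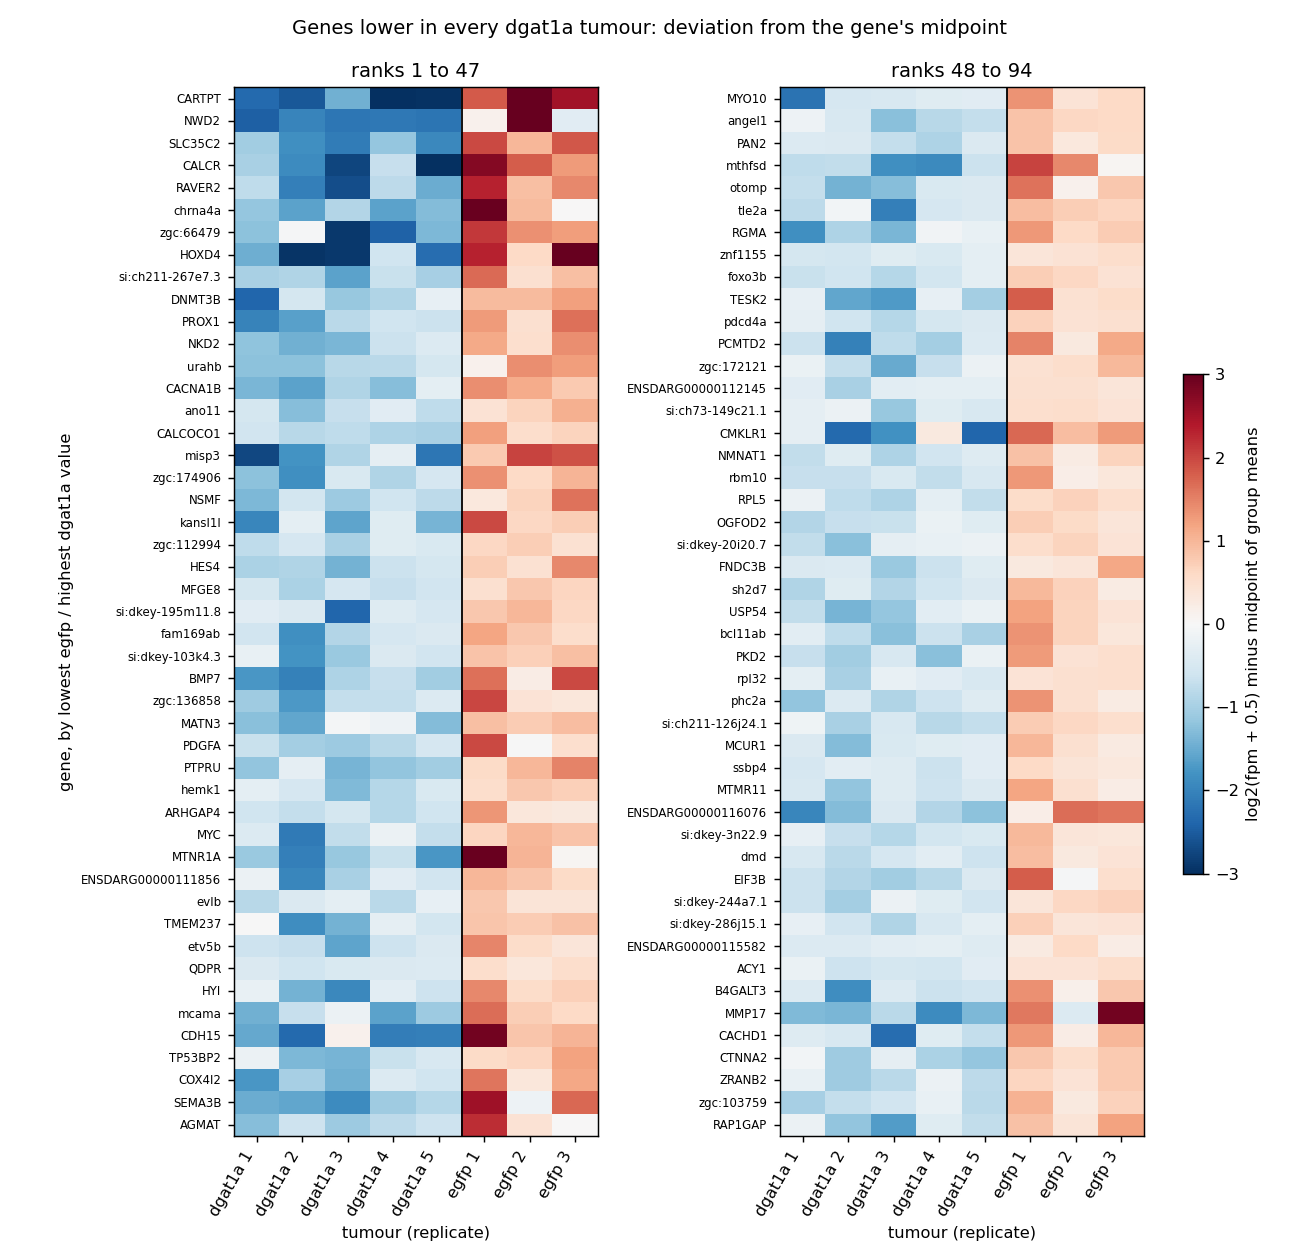
Level of each of the 94 members in each tumour, as log2(fpm + 0.5) minus the midpoint of the group means (colour, blue below and red above, cut at 3 either way). Rows run from the widest gap, CARTPT, to the narrowest, RAP1GAP, in 2 panels, and the black line parts the 5 dgat1a tumours (left) from the 3 egfp tumours (right). Deep colours gather in the upper rows of the left panel, and egfp replicate 1 is the reddest column for 58 members.

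The widest gap was that of CARTPT (ENSDARG00000035852), which encodes the precursor of the neuropeptide CART. It stood at 0.571, 0.417, 1.47, 0.146 and 0.191 fpm in dgat1a replicates 1 to 5, against 18.7, 44.2 and 30.6 fpm in egfp replicates 1 to 3. The lowest egfp tumour was thus 12.7 times above the highest dgat1a tumour, and the log2 fold change was -4.94 ± 0.45 (SE). SLC35C2 (ENSDARG00000037517), a transporter of the Golgi membrane that takes part in the fucosylation of Notch, was the most abundant gene with a gap of over 3-fold. It had 77.8, 44.5, 37.4, 71.6 and 42.1 fpm in dgat1a tumours, against 640, 324 and 588 fpm in egfp tumours, with a log2 fold change of -3.23 ± 0.32. The dgat1a tumours lay close together, well apart from the egfp values. CALCR (ENSDARG00000028845), the calcitonin receptor, had 35.3, 18.5, 9.90, 42.8 and 5.73 fpm in dgat1a tumours, against 466, 246 and 170 fpm in egfp tumours. Its values differed by a larger ratio among the dgat1a tumours than between the nearest values of the groups, and its log2 fold change was -3.90 ± 0.63.

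The size of the difference rested on 1 library for NWD2 (ENSDARG00000077162), a gene of a family with NACHT and WD repeat domains. It had 0.132, 0.375, 0.276, 0.292 and 0.267 fpm in dgat1a replicates 1 to 5, against 3.30, 379 and 2.24 fpm in egfp replicates 1, 2 and 3. Replicate 2 alone made the egfp mean of 128 fpm, and without it the mean over the other 7 tumours fell below the minimum, so that no fit could be had. The nerve and glia markers did not move together in that library. Of the 13 IDs, 3 were highest among the egfp tumours in replicate 2, among them the myelin gene plp1b at 287 fpm, against 2.16 and 3.90 fpm in egfp replicates 1 and 3. The whole list summed to 414, 516 and 417 fpm in egfp replicates 1, 2 and 3, and so was highest in replicate 2. Without plp1b the list summed to 126 to 323 fpm in dgat1a tumours, against 411, 229 and 413 fpm in egfp replicates 1, 2 and 3. The sum without plp1b was thus lowest in replicate 2 among the egfp tumours. The part of nerve or glia in NWD2 was not tested. For chrna4a (ENSDARG00000087071), a subunit of the nicotinic acetylcholine receptor, egfp replicate 1 weighed most. It had 0.176, 0, 0.322, 0 and 0.115 fpm in dgat1a tumours, against 11.5, 2.42 and 1.04 fpm in egfp tumours. Without egfp replicate 1 its mean, too, was below the minimum, and without egfp replicate 3 its log2 fold change was -3.27 in place of -2.63.

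**Figure D3:**
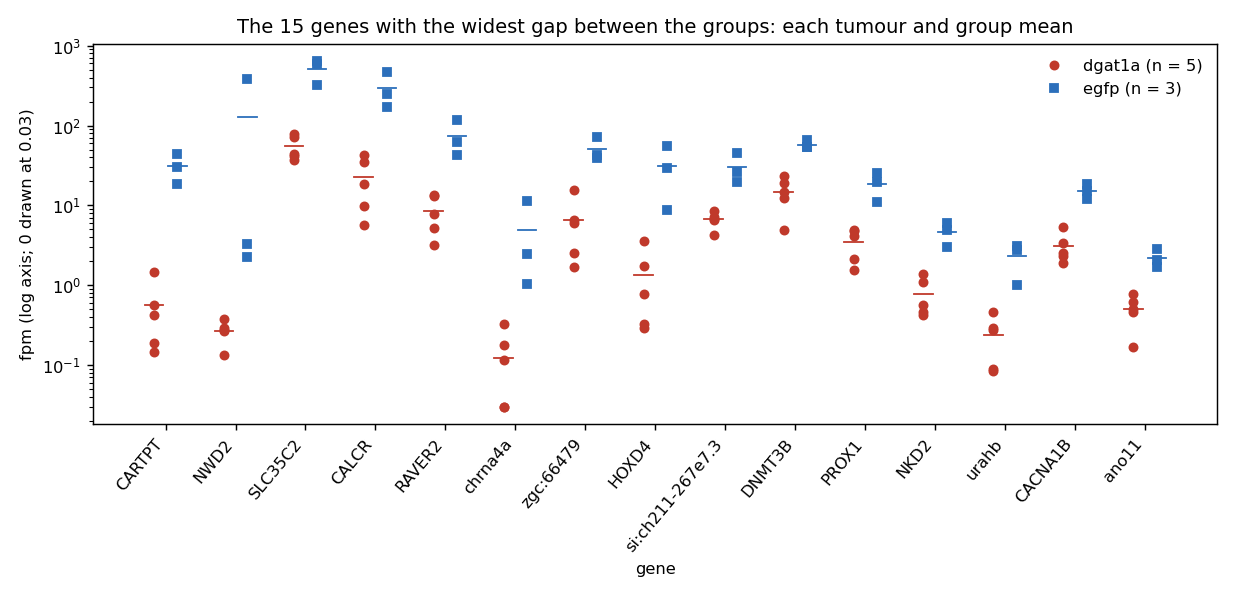
Level in fpm (log axis, values of 0 drawn at 0.03) of the 15 genes with the widest gap in every tumour, dgat1a as red circles (n = 5, the 2 zeros of chrna4a overlie) left of egfp as blue squares (n = 3), with a line at each group mean. The lowest square lies above the highest circle in each gene, by a ratio of 12.7 for CARTPT and 2.19 for ano11, and the square of NWD2 at 379 fpm stands far from the other 2.

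Among the other wide gaps, RAVER2 (ENSDARG00000075034), an RNA-binding protein and splicing cofactor, had 13.4, 5.13, 3.22, 13.1 and 7.83 fpm in dgat1a tumours, against 116, 43.2 and 62.8 fpm in egfp tumours. HOXD4 (ENSDARG00000059276), a homeobox factor of trunk patterning, had 1.71, 0.292, 0.322, 3.54 and 0.764 fpm in dgat1a tumours, against 29.6, 8.81 and 55.9 fpm in egfp tumours. Its log2 fold change of -4.07 ± 0.69 lay between -4.79 without egfp replicate 2 and -3.49 without egfp replicate 3. Each group spread over more than 6-fold for this gene, and the lowest egfp value stayed 2.49 times above the highest dgat1a value. DNMT3B (ENSDARG00000036791), a DNA methyltransferase that sets new methylation, had 4.92, 19.0, 12.2, 14.5 and 23.3 fpm in dgat1a tumours, against 54.0, 53.5 and 65.2 fpm in egfp tumours. Here the egfp tumours lay close together and dgat1a replicate 1 was the lowest by far. The gene ENSDARG00000075487, which has only a clone name, had 6.77, 7.17, 4.19, 8.46 and 6.64 fpm in dgat1a tumours, against 45.6, 19.5 and 25.9 fpm in egfp tumours.

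The members were then arranged by the role of genes of their name, a grouping made after their values were seen and used only to describe them. Secreted signals, receptors and their modulators made up 11 members, and their dgat1a means were the lowest of the role groups by the median, at 14.7% of the egfp means with a range of 1.80% to 31.0%. Besides CARTPT and CALCR they included MTNR1A, a melatonin receptor, with 2.33, 1.0, 2.30, 3.35 and 1.34 fpm in dgat1a tumours, against 47.6, 11.9 and 5.95 fpm in egfp tumours. BMP7, a ligand of the bone morphogenetic protein family, had 3.69, 2.92, 6.86, 8.20 and 6.30 fpm in dgat1a tumours, against 43.8, 15.9 and 54.8 fpm in egfp tumours. SEMA3B, a secreted semaphorin of axon guidance, had 2.81, 2.63, 1.98, 3.94 and 4.58 fpm in dgat1a tumours, against 53.7, 7.76 and 29.9 fpm in egfp tumours. All 3 genes spread over a wider ratio among the egfp tumours than among the dgat1a tumours. RGMA, a membrane-bound guidance molecule and BMP co-receptor, averaged 32.8 ± 16.1 fpm in dgat1a tumours and 106 ± 28.4 fpm in egfp tumours (SD). NKD2, an inhibitor of Wnt signalling that binds Dishevelled, had 0.571, 0.417, 0.461, 1.09 and 1.37 fpm in dgat1a tumours, against 4.93, 3.04 and 6.06 fpm in egfp tumours. The rest were CMKLR1, a receptor for chemerin, PDGFA, a growth factor, PTPRU, a receptor tyrosine phosphatase, and RAP1GAP, which switches off the small GTPase RAP1.

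Factors of transcription and chromatin made up 12 members, with dgat1a means at 4.21% to 52.1% of the egfp means and a median of 32.6%. MYC (ENSDARG00000007241), the growth-promoting transcription factor, had 140, 41.8, 111, 163 and 113 fpm in dgat1a tumours, against 290, 369 and 336 fpm in egfp tumours. The egfp values were close to each other, and dgat1a replicate 2 stood below the other 4 dgat1a tumours. The log2 fold change was -1.67 ± 0.40. The ETS factor etv5b (ENSDARG00000044511), whose transcription FGF and ERK signalling switch on in zebrafish, had 126, 120, 64.4, 126 and 145 fpm in dgat1a tumours, against 539, 287 and 249 fpm in egfp tumours. Replicate 1 was the highest egfp tumour for this gene, and without it the log2 fold change was -1.251 in place of -1.59. PROX1, a homeobox factor of lymphatic and neural cell fate, had 1.54, 2.13, 4.15, 4.85 and 4.73 fpm in dgat1a tumours, against 19.3, 10.9 and 25.1 fpm in egfp tumours. A forkhead factor downstream of AKT, foxo3b, had the even values of 57.6, 59.7, 49.8, 61.9 and 74.9 fpm in dgat1a tumours, against 153, 139 and 123 fpm in egfp tumours. Also here were HES4, a transcriptional repressor linked to the Notch pathway, the Groucho-type co-repressor tle2a, the Polycomb component phc2a, bcl11ab, kansl1l, znf1155 and, described above, HOXD4 and DNMT3B.

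MYC and etv5b are both on a list of 20 genes of the output of RAS and ERK signalling, and were its only members here. The other listed genes lay on both sides of 0. Over the list the median log2 fold change was 0.28, 7 of 20 were below 0, and none passed the limma threshold after adjustment. At an unadjusted limma p under 0.05, 3 were higher, against 6.83% of all tested genes, and 2 were lower, MYC and etv5b themselves, against 8.18%. The paralog etv5a, by comparison, had 123 to 141 fpm in dgat1a tumours and 82.2 to 130 fpm in egfp tumours, with overlapping groups. DUSP6, a phosphatase that ERK signalling switches on, had 270 to 658 fpm in dgat1a tumours and 103 to 581 fpm in egfp tumours, and overlapped too.

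Genes of RNA and translation made up 9 members, with the highest median of dgat1a relative to egfp means among the role groups with names, 43.3%. The most abundant members of the whole set were among them. RPL5 (ENSDARG00000015862), a protein of the large ribosomal subunit that also binds MDM2, had 1771, 1171, 1044, 1624 and 1201 fpm in dgat1a tumours, against 2926, 3197 and 2819 fpm in egfp tumours. Its log2 fold change was -1.16 ± 0.22. Another protein of that subunit, rpl32 (ENSDARG00000054818), had 1339, 830, 1394, 1284 and 1175 fpm in dgat1a tumours, against 2177, 2266 and 2336 fpm in egfp tumours. The egfp values of both genes lay within a narrow band. The translation inhibitor pdcd4a had 154, 122, 101, 128 and 136 fpm in dgat1a tumours, against 301, 250 and 260 fpm in egfp tumours. With RAVER2, the others were the splicing factors rbm10 and ZRANB2, the deadenylase subunit PAN2, the methyltransferase hemk1 and the initiation factor subunit EIF3B.

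Most ribosomal protein genes had fold changes below 0. Of the 22 tested genes on a list of ribosomal proteins, 21 had a log2 fold change below 0, the median was -0.58 and RPL5 was the only member. None passed the limma threshold after adjustment, and 11 were lower at an unadjusted p under 0.05, as were 8.18% of all tested genes. Since the family stood out, all 77 tested genes with symbols of the RPL or RPS form were then counted, a list chosen after the values were seen. Of these 74 were below 0, with a median of -0.55 against 0.04 for all tested genes and a range of -1.26 to 0.88. The groups did not overlap, with dgat1a lower, in 34 of them, or 44.2%, against 5.95% of all tested genes. Only RPL5 and rpl32 had a gap of over 1.5-fold. Together the family took 10.0%, 7.81%, 10.1%, 11.4% and 10.00% of the signal in dgat1a replicates 1 to 5, against 14.1%, 13.5% and 14.0% in egfp replicates 1 to 3. The direction was the same under column totals, TMM scaling and quantile normalization, and quantile normalization, which gives the libraries 1 distribution, reduced the median to -0.25 with 68 of 77 below 0.

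**Figure D4:**
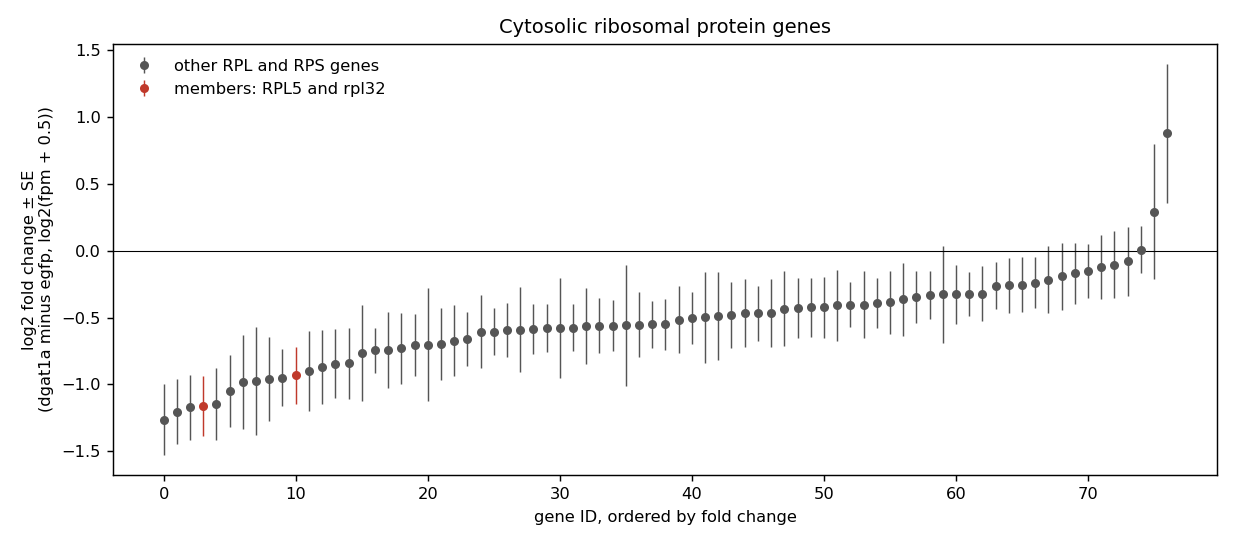
Log2 fold change with its SE (dgat1a minus egfp, log2(fpm + 0.5) scale) of the 77 tested genes with RPL or RPS symbols, ordered by that value. The members RPL5 and rpl32 are red and the other genes grey. All but 3 points lie below the line at 0, the members among the lower ones but not at the end.

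Adhesion and the extracellular matrix were represented by 8 members with a median of 26.6%. The melanoma cell adhesion molecule gene mcama had 14.8, 25.2, 36.0, 13.1 and 19.1 fpm in dgat1a tumours, against 133, 68.4 and 61.9 fpm in egfp tumours. CDH15, a cadherin best known in muscle, had 0.659, 0.167, 3.18, 0.292 and 0.305 fpm in dgat1a tumours, against 24.3, 5.42 and 6.25 fpm in egfp tumours. Skeletal muscle markers, by the sums above, reached higher in dgat1a tumours than in egfp tumours, and their part here was not tested. The dystrophin gene dmd was likewise a member, at 11.3 ± 1.497 fpm in dgat1a tumours and 25.0 ± 6.27 fpm in egfp tumours (SD). MMP17, a membrane-bound metalloproteinase, had 0.109 to 0.783 fpm in dgat1a tumours, against 6.25, 1.19 and 16.4 fpm in egfp tumours. The others were CTNNA2, an alpha-catenin of neurons, MATN3, a matrilin of cartilage, MFGE8, a secreted phosphatidylserine-binding protein, and otomp, an otolith matrix protein.

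Metabolism, transport and mitochondria accounted for 10 members with a median of 30.9%. COX4I2 (ENSDARG00000022509), an alternative subunit of cytochrome c oxidase, had 50.3, 85.5, 62.6, 128 and 113 fpm in dgat1a tumours, against 521, 218 and 379 fpm in egfp tumours. Its log2 fold change was -2.07 ± 0.37. QDPR, which regenerates the cofactor tetrahydrobiopterin, differed from it in having almost no spread within the groups, with 17.5, 15.5, 17.2, 17.4 and 17.6 fpm in dgat1a tumours, against 34.7, 30.4 and 34.6 fpm in egfp tumours. ACY1, an aminoacylase, averaged 36.3 ± 4.56 fpm in dgat1a tumours and 67.4 ± 3.0 fpm in egfp tumours (SD). The least abundant was urahb, named for 5-hydroxyisourate hydrolase, with 0.0879, 0.0834, 0.276, 0.292 and 0.458 fpm in dgat1a tumours, against 1.01, 3.13 and 2.78 fpm in egfp tumours. The others were SLC35C2, the NAD-forming enzyme NMNAT1, AGMAT, HYI, the galactosyltransferase B4GALT3 and MCUR1, a regulator of mitochondrial calcium uptake. None of them is an enzyme of triacylglycerol handling, and no member is on the lists of lipid droplet and triacylglycerol genes, fatty acid and sterol synthesis or fatty acid oxidation. Those lists hold 16, 17 and 27 tested IDs, and 0.558% of all tested genes are members. The absence of members from lists so short says little about lipid genes.

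Ion channels and their subunits gave 5 members with a median of 22.8%. CACNA1B, the pore of an N-type calcium channel, had 2.33, 1.88, 3.41, 2.52 and 5.42 fpm in dgat1a tumours, against 18.5, 15.3 and 12.0 fpm in egfp tumours. The anoctamin gene ano11 had 0.615, 0.167, 0.507, 0.766 and 0.458 fpm in dgat1a tumours, against 1.67, 2.07 and 2.86 fpm in egfp tumours, and so was low in both groups. Beside chrna4a the group held PKD2, a cation channel of cilia, and CACHD1, a calcium channel modulator.

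Cytoskeleton, traffic and cilia accounted for 6 members with a median of 34.7%. CALCOCO1 (ENSDARG00000036695), a receptor for the autophagy of endoplasmic reticulum, was the most abundant of them, with 477, 401, 419, 377 and 360 fpm in dgat1a tumours, against 1680, 1031 and 1124 fpm in egfp tumours. Its log2 fold change was -1.62 ± 0.21. ARHGAP4 (ENSDARG00000015003), a GTPase-activating protein, had 123, 113, 127, 102 and 122 fpm in dgat1a tumours, against 463, 234 and 227 fpm in egfp tumours. Without egfp replicate 1 its log2 fold change was -0.97 in place of -1.31. The others were the filopodial motor MYO10, the actin regulator evlb, the kinase TESK2 and TMEM237, a protein of the ciliary transition zone.

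Of the remaining members, 14 had names that were not placed in these groups, 15 had clone-type names beginning with si or zgc and 4 had no symbol. Clone-type names made up 16.0% of the members and 12.1% of all tested genes. One of them, zgc:174906, had 13.8, 8.93, 23.9, 17.5 and 23.3 fpm in dgat1a tumours, against 86.1, 50.2 and 67.8 fpm in egfp tumours. Another, zgc:66479, had 6.51, 15.6, 1.70, 2.55 and 5.99 fpm in dgat1a tumours, against 71.0, 42.2 and 38.9 fpm in egfp tumours. Both had gaps of over 2-fold. The 14 named genes included TP53BP2 (ENSDARG00000054858), whose product binds p53, which is mutant in all 8 tumours. This ID had 16.2 ± 6.01 fpm in dgat1a tumours and 49.1 ± 12.6 fpm in egfp tumours (SD). A more abundant copy of TP53BP2 is described below. No member is on 22 of the 24 gene lists used to describe the tumours, among them those of melanin synthesis, p53 targets, the cell cycle, oxidative phosphorylation and immune cells. These 22 lists hold 4 to 27 tested IDs each, and 0.558% of all tested genes are members. Lists of that size would mostly hold no member at that share, so the absence says little about them.

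Zebrafish often carry several copies of a gene that is single in mammals, and 16 members share their symbol with another listed ID. How the authors' counting treated reads shared by near-identical copies is not given in the sources used here, so the values of such a member are uncertain. Of the 19 other IDs, 13 passed the minimum mean. None was itself a member, 8 of the 13 had a log2 fold change below 0, and the median was -0.26. At an unadjusted limma p under 0.05, 5 were lower and 0 were higher, against 8.18% and 6.83% of all tested genes, and none passed after adjustment. The other RPL5 (ENSDARG00000020197) was at 1422, 800, 1841, 1701 and 1382 fpm in dgat1a tumours, against 3349, 1857 and 3070 fpm in egfp tumours. The sum of both RPL5 IDs averaged 2791 ± 541 fpm in dgat1a tumours and 5739 ± 624 fpm in egfp tumours (SD). The other copies of PCMTD2, RAP1GAP and PDGFA (ENSDARG00000098578) had means in dgat1a tumours that were 37.3%, 32.3% and 41.0% of the egfp means. The other MYC (ENSDARG00000045695) was far less abundant, with 4.13 to 13.1 fpm in dgat1a tumours and 5.73 to 18.8 fpm in egfp tumours, and its groups overlapped. For EIF3B the member (ENSDARG00000074213) was the minor copy, at 0.454 ± 0.158 fpm in dgat1a tumours and 2.65 ± 2.16 fpm in egfp tumours. The main copy (ENSDARG00000059654) averaged 553 ± 182 fpm in dgat1a tumours and 393 ± 68.8 fpm in egfp tumours. The groups of the main copy overlapped. For TP53BP2 the member was the minor copy too. The other ID (ENSDARG00000009136) averaged 136 ± 20.3 fpm in dgat1a tumours and 155 ± 43.3 fpm in egfp tumours, and its groups overlapped. The other copies of QDPR (ENSDARG00000040190), CMKLR1 (ENSDARG00000090890), FNDC3B and CALCOCO1 were higher on average in dgat1a tumours. Their dgat1a means were 147%, 139%, 155% and 132% of the egfp means, with overlapping groups.

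The members were not spread evenly over the chromosomes. By name, 60 members and 12341 tested genes were placed on a chromosome of the RefSeq assembly GRCz12tu, and 34 members were not. Chromosome 23 held 11 members, 2.27% of its 484 placed genes, and chromosome 6 held 11, 2.04% of its 540. Chromosome 22 held 5, or 1.08%, where 0.486% of all placed genes were members. Chromosomes 6 and 23 together thus held 36.7% of the placed members and 8.30% of the placed genes, and 7 of the 25 chromosomes held none. On chromosome 23 lay COX4I2, ano11, PAN2, rbm10, NMNAT1, phc2a, B4GALT3, AGMAT, zgc:103759, zgc:112994 and zgc:174906. On chromosome 6 lay etv5b, RAVER2, CACHD1, HYI, bcl11ab, ZRANB2, hemk1, misp3, zgc:66479, zgc:172121 and si:dkey-195m11.8. Close neighbours were few, as 2 pairs lay within 10 protein-coding genes of each other, zgc:103759 and COX4I2 on chromosome 23, 6 genes apart, and CACHD1 and RAVER2 on chromosome 6, 2 genes apart.

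The other genes of chromosomes 23, 6 and 22 were also low on average in dgat1a tumours. No chromosome passed a test over all 25, which 3 and 5 tumours leave little room to pass. The level of a chromosome in a tumour was the median deviation of its genes from the midpoint of their group means, on the log2(fpm + 0.5) scale. The median over all placed genes in that tumour was subtracted, so levels are relative to the other chromosomes. All members and the 92 genes of the opposite rule were left out. For chromosome 23 it was -0.32, -0.07, -0.21, -0.41 and -0.23 in dgat1a replicates 1 to 5, against 0.61, -0.11 and 0.26 in egfp replicates 1 to 3. The difference of -0.50 was -0.32 without egfp replicate 1 and -0.68 without egfp replicate 2, the only egfp tumour within the dgat1a range. For chromosome 6 the level was 0.01, -0.19, -0.61, -0.05 and -0.35 in dgat1a tumours, against 0.21, 0.25 and 0.16 in egfp tumours, a difference of -0.44. For chromosome 22 it was -0.11, -0.16, -0.09, -0.30 and -0.13 in dgat1a tumours, against 0.13, 0.08 and 0.23 in egfp tumours, a difference of -0.31. Other chromosomes with more members per gene than the average did not all share this. Chromosome 2, with 4 members or 0.748%, differed by -0.29, near the value of chromosome 22, and its groups overlapped as on chromosome 23. Chromosome 25, with 3 members or 0.829%, differed the other way by 0.20. The groups did not overlap on chromosomes 6 and 22, nor on chromosome 18, where the difference was -0.17, or on chromosome 15, which has no member and differed the other way by 0.33.

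By the group means, the level was lower in dgat1a tumours in every part of chromosomes 6 and 23, though not in every tumour. On chromosome 6, dgat1a replicates 1 and 4 lay between -0.06 and 0.03 in each part. On chromosome 23, egfp replicate 2 lay below dgat1a replicate 2 in each part. In 4 successive parts of the gene order, equal in number of genes, the difference was -0.43, -0.51, -0.46 and -0.38 on chromosome 6, and -0.42, -0.54, -0.50 and -0.50 on chromosome 23. On chromosome 22 it was -0.48 in the first part and -0.26, -0.23 and -0.21 in the others. Chromosome 2 was also lower in every part, by -0.30, -0.33, -0.22 and -0.29. In exact two-sided permutation tests of the level over the 8 tumours, none of the 25 chromosomes had a Benjamini-Hochberg adjusted p under 0.05. The smallest was 0.149, and the smallest raw p that 3 and 5 tumours allow is 0.0179. The 2 chromosomes at that limit still had an adjusted p of 0.149. The test thus had little room to pass and cannot decide for single chromosomes.

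**Figure D5:**
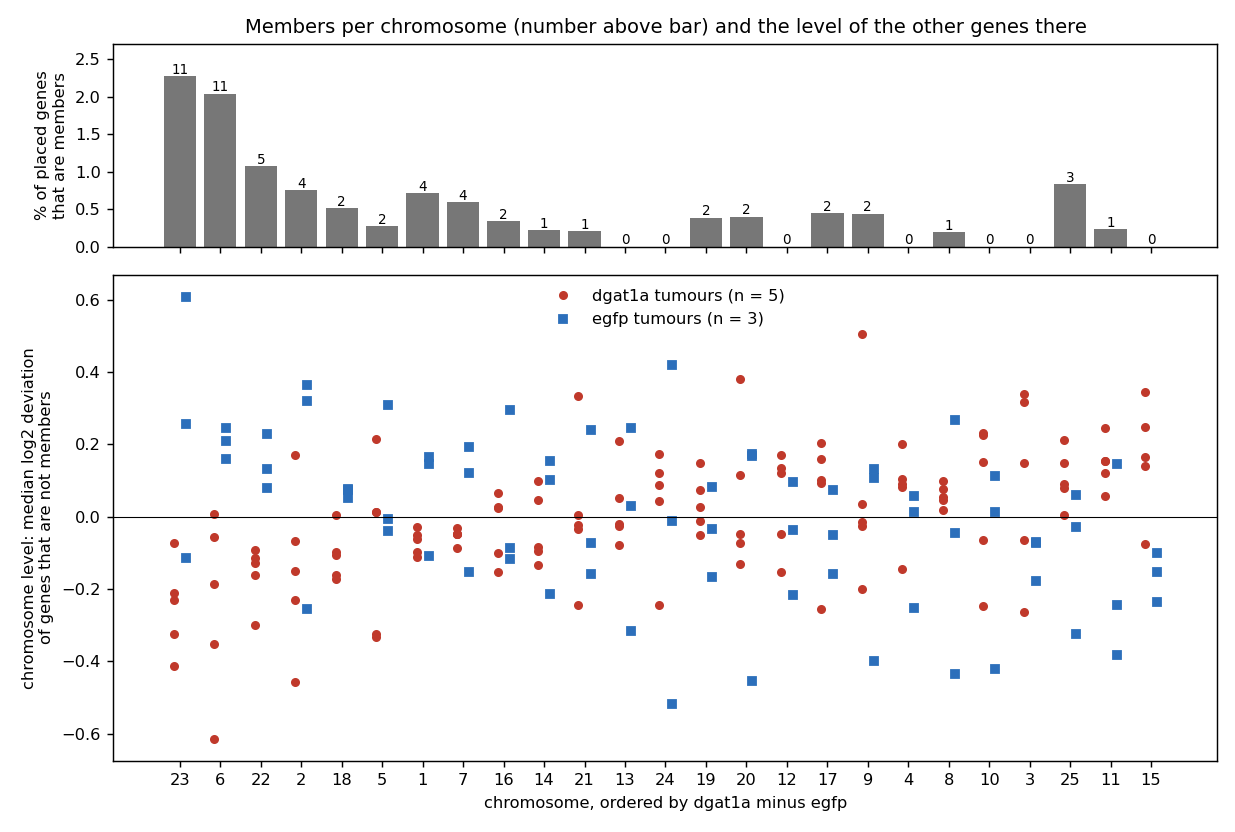
Top, percent of the placed genes of each chromosome that are members, with their number above the bar. Bottom, level of the genes there that are in neither set, in each dgat1a tumour (red circles, n = 5) and each egfp tumour (blue squares, n = 3). The level is the median log2 deviation from the midpoint of the group means, minus that over all placed genes. Chromosomes are ordered by dgat1a minus egfp from -0.50 on chromosome 23 to 0.33 on chromosome 15. The chromosomes with the most members per gene, 23, 6 and 22, stand at the left end, and 7 chromosomes hold none.

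When each value was divided by the level of its chromosome in that tumour, 45 placed genes met the rule, and 28 of the 60 placed members were among them. The level was taken from the same tumours as the rule. On chromosomes 23, 6 and 22 it averaged lower in dgat1a tumours than in egfp tumours. The division itself thus works to narrow the gaps there. On chromosome 23 only zgc:174906 of 11 was kept, and on chromosome 22 none of 5. On chromosome 6 RAVER2, zgc:66479, misp3 and si:dkey-195m11.8 of 11 were kept. The ratio of the lowest egfp to the highest dgat1a value of etv5b was 1.21 after the division and 1.72 before it. For COX4I2 it was 1.38 after and 1.70 before, for rpl32 1.26 after and 1.56 before, and for ano11 1.08 after and 2.19 before. Away from these 3 chromosomes, 23 of 33 placed members were kept. The smaller share kept on the 3 chromosomes was favoured by the way the level was made, and is no separate finding about their members. NWD2, CALCR, HOXD4, PROX1, MTNR1A, SEMA3B, BMP7, NKD2 and foxo3b were kept with ratios from 1.82 to 6.24. Other kept members had ratios down to 1.53, that of MCUR1. Not kept away from the 3 chromosomes were mthfsd, pdcd4a, OGFOD2, dmd, MTMR11, CDH15, PKD2, mcama, MYO10 and TESK2, with ratios from 1.27 to 1.48. CARTPT, SLC35C2, MYC, RPL5, DNMT3B and CALCOCO1 were not placed and so not examined in this way.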

How the data were processed

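The authors deposited 3 tables of 22416 Ensembl genes for the 8 tumours: a per-million signal (fpm), variance-stabilised values on a log2 scale, and their own comparison with a mean signal, a log2 fold change and its standard error, a score and a p-value, raw and adjusted. Per the file headers, the last has the column names that DESeq2 writes. The submitters' processing notes name STAR 2.5.3, featureCounts 1.6.2, DESeq2 1.14.1 and build GRCz11 without their roles; filters and strandedness are not given in the sources used here, so antisense and overlapping genes could not be told apart. Per the labels' protocols, RNA was taken with Trizol and libraries followed the standard Illumina route.

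The fpm columns sum to between 907747 and 1053608, so they are not scaled to the column total. Divided by what 1 read is worth in a column, 100% of the values came out whole (tolerance 0.01), which gave back the reads. The floor of 3 reads covers counting error only.

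The rule was applied to the fpm values. Fold changes come from limma 3.58.1 in R 4.3.3 (intensity trend) on log2(fpm + 0.5), fitted to the 16853 genes that averaged 1 fpm or more over 8 tumours, with p-values adjusted over all of them by Benjamini-Hochberg at 0.05. The plan named limma for a scaled signal. As alternatives, edgeR 4.0.16 (quasi-likelihood test) and DESeq2 1.42.0 were run on the recovered reads. limma was tested on simulated data of 16853 genes before use. Other alternatives were pseudocounts, minimum means, scalings, the fold of the rule, the variance-stabilised values, a block for the replicate number and fits with 1 tumour left out.

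The members and the lists were chosen with earlier results of these data known, so that no list is independent evidence. The rule for the genes named took the 15 with the widest gap, the 10 with the highest egfp mean, those on a list, those past the limma threshold, close neighbours on a chromosome, and the 3 on either side of the threshold; some are given by a mean, a ratio or their name alone. Others were named after their values were seen, as were the role groups, the RPL and RPS list and the chromosome analysis. Symbols came from a name table that matched 21017 of the 22416 IDs. Chromosomes and gene order came by symbol from RefSeq's table of GRCz12tu, which is not the build of the files, so no coordinates are given. Sequences were not analysed here.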

Additional observations from a re-analysis of the deposited data

Results flagged for a closer look

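Each of the 26 named members was checked for a dgat1a tumour standing apart from the other 4. The measure was the gap to its nearest neighbour over the range of the group in fpm, with 0.71 as the critical value for 5 samples. None exceeded it on that scale. A log scale gives more weight to a low value, such as dgat1a replicate 3 for etv5b at 64.4 fpm against 120 to 145 fpm in the others. The 3 egfp tumours are too few for this check, under which chance marks about 1 group in 20.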

How the results depend on the processing

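The number of members was 285 with a fold of 5 to 4 and 21 with a fold of 2. It was 57 on the deposited variance-stabilised values, all of them members. With no minimum mean it was 135, with a minimum mean of 5 fpm 71, with equal column totals 64 (63 shared), with TMM scaling 90 (88 shared) and with quantile normalization 115 (87 shared). Fewer tumours make the rule easier to meet, and leaving out 1 in turn gave 114 to 497 genes, the most without egfp replicate 2. Without egfp replicate 3 it gave 283, without egfp replicate 1 157 and without dgat1a replicate 1 151. Of the 94 members, 91 met the rule without egfp replicate 1, where only the minimum mean can remove a member.

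Over all genes limma called 9, and 7 to 11 with other pseudocounts, minimum means and scalings. The edgeR quasi-likelihood test called 3 and DESeq2 called 866. Leaving out 1 tumour gave 5 to 55 calls, 1 to 36 of them lower, the most without egfp replicate 2 and the fewest without egfp replicate 1. Restricted to tumours 1 to 3, a block for the replicate number left 0 limma calls (2080 at an unadjusted p under 0.05), and 4 without the block in the same 6 tumours (1839 unadjusted). Same-numbered tumours correlated in their deviations from the group means at 0.24, 0.07 and 0.01, so the numbers were not taken to pair the samples.

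Of 333 refitted log2 fold changes of the named members, 0 reversed and 9 moved by more than the replicate SD. The rule fixed the lack of reversals almost in advance. With every egfp value above every dgat1a value, neither another pseudocount nor leaving out a tumour can reverse a member. Those of CARTPT, chrna4a, NKD2, urahb and ano11 moved with the pseudocount, and those of RPL5 (-0.79) and rpl32 (-0.57) with quantile normalization. The level differences of chromosomes 6, 22 and 23, singled out after the values were seen, kept their sign under every alternative run. Those of the other chromosomes under the alternatives are not given here. Placed genes that met the rule numbered 60, and 45 after division by the chromosome level. Depth limits the members with 3 reads or fewer in a dgat1a tumour.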
